A study of Mus musculus with 12 samples.

Results

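The signal transducers and activators of transcription (STATs), their feedback inhibitors and interferon regulatory factor 1 were examined as a group of 9 genes, out of 30630 genes measured in CT-26 tumors of swimming and control mice. The group holds Stat2, Stat3, Stat4, Stat5a, Stat5b, Stat6, Socs1, Socs3 and Irf1, and it does not hold every STAT gene. They were matched by name through their mouse Ensembl gene identifiers in GENCODE M21. These genes and the gene lists used below were chosen with earlier results of these data known. Counts set beside the share of all genes are therefore descriptions. All 9 genes passed the filter on low values that was set for the comparison. CT-26 cells, a mouse line of colon carcinoma, were injected in Matrigel under the skin of the right flank of male BALB/c mice that were bought at 4 to 6 weeks of age. Every mouse carried such a tumor. Of the 10 mice in each group, tumors of 6 control mice, which did not swim, and of 6 mice of the swimming group were sequenced. Training in water was given 2 times daily on 6 days of each week for 3 weeks, and single sessions were lengthened to at most 30 min. The tumors are transplants of 1 cell line that grew under the skin and not in the colon, and each is a mixture of tumor cells and host cells.

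Cytokines bind receptors that carry Janus kinases, and these kinases phosphorylate STAT proteins, which pair, enter the nucleus and bind short DNA elements near their target genes. STAT2 works in the response to type I interferons, STAT3 downstream of interleukin-6 and interleukin-10, STAT4 downstream of interleukin-12 in T cells and natural killer cells, STAT5A and STAT5B downstream of interleukin-2, growth hormone and prolactin, and STAT6 downstream of interleukin-4 and interleukin-13. IRF1 is a transcription factor that interferon gamma induces and that acts on genes of antigen processing and of defence against intracellular microbes. SOCS1 and SOCS3 are induced by cytokines and bind receptors and Janus kinases, which ends the signal. In tumors, interferon signaling is known for immune recognition, and STAT3 for growth and for the suppression of immune cells.

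The DNA elements are shown in the promoters of Irf1, Stat2, Socs1 and Socs3. Promoter sequences were taken from RefSeq for GRCm38.p6, and all 9 genes were found, with 13 promoters among them because several genes have more than one start. A promoter was searched over 250 bases before and 50 bases after the start, on both strands. The gamma-activated site (GAS) was searched as TTCNNNGAA, a form with a longer gap as TTCNNNNGAA, and the core of the interferon-stimulated response element (ISRE) as GAAANNGAAA. Irf1 and Socs3 held a GAS, which 8.3% of all 32851 promoters also held. Stat2, Socs1 and the second promoter of Stat4, which is not printed, held an ISRE core, against 3.44% of all promoters, and Stat2 also held the longer form, against 6.95%. In Socs1 a pair of ISRE cores overlapped. Only the 250 bases before the start are printed, read toward the gene, with matches in capitals, so that the position of each element can be seen.
Irf1: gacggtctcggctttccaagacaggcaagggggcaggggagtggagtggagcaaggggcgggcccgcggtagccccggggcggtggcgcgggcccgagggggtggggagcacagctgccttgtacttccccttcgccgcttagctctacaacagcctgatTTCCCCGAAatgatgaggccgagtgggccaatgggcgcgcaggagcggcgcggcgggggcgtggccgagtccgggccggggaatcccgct
Stat2: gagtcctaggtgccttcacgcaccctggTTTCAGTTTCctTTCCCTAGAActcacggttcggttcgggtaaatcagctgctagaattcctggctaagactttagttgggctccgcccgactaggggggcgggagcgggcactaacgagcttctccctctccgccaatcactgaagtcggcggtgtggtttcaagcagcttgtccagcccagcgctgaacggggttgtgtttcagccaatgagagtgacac
Socs1: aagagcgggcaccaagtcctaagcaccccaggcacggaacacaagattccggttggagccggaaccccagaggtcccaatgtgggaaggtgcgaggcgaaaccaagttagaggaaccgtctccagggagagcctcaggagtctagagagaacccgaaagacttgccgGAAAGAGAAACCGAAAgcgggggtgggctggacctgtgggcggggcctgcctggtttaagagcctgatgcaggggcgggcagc
Socs3: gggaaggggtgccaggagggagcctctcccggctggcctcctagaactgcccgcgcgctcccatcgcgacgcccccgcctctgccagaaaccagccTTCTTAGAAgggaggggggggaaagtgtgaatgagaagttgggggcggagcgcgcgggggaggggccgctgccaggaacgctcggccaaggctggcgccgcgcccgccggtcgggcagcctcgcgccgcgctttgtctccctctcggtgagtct
The stretch of Irf1 is chr11:53769764-53770013 on the plus strand, and its GAS, TTCCCCGAA, runs from position -90 to -82 counted from the start. That of Stat2 is chr10:128270248-128270497 on the plus strand, with the ISRE core beginning 222 bases before the start, on the opposite strand, and the longer GAS form beginning 210 bases before it. That of Socs1 is chr16:10785537-10785786 on the minus strand, with ISRE cores at -83 to -74 and -77 to -68. That of Socs3 is chr11:117969367-117969616 on the minus strand, with the GAS TTCTTAGAA at -154 to -146. These are matches of letters, and no binding was measured.

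Expression was deposited as FPKM, fragments scaled for gene length and for sequencing depth, so levels can be compared between genes. The number of reads is unknown. Relative depth was taken as the most frequent ratio of low values in control 1 to those in each other tumor. It was 0.694 in control 2 and lay between 0.871 (swimming 4) and 0.972 (swimming 1) in the rest. Markers of macrophages summed to between 1404 and 2002 FPKM in the 12 tumors, and those of fibroblasts to between 187.7 and 807.5 FPKM. Of 8 epithelial markers, Epcam, Cldn4, Cldn7 and Vil1 did not pass the filter, and the sum was between 9.55 and 30.5 FPKM in 11 tumors and 144.7 FPKM in control 4. Swimming 1 and control 5 had the lowest sums of T cell and natural killer cell markers of the 12 tumors, 28.3 and 33.9 FPKM. In bulk tumors, fewer cells of a type and less RNA per cell cannot be told apart.

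Levels of the 9 genes over all 12 tumors ran from 37.1 FPKM for Stat6 to 0.434 FPKM for Stat4. Between them, in falling order, came Socs3 at 26.5, Irf1 at 22.7, Stat3 at 12.6, Stat5b at 10.2, Stat2 at 7.25, Socs1 at 6.48 and Stat5a at 1.3 FPKM. Stat6 was thus above 92% of the genes tested, while Stat4 was above 21.9% of them. Neighbours in this order were compared within tumors by a two-sided exact sign-flip test over 8 pairs. Socs3 and Irf1 (8 of 12 tumors in this order, exact p = 0.0815, Benjamini-Hochberg adjusted 0.0932) and Stat2 and Socs1 (9 of 12 tumors, exact p = 0.123, adjusted 0.123) did not differ beyond their spread. The other 6 pairs kept their order in 11 or 12 of the 12 tumors, with adjusted p of at most 0.0026.

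Groups were compared on log2(FPKM + 1) with limma over the 19018 genes that reached 0.1 FPKM in 6 or more tumors. Single genes were also compared by exact permutation of the tumors, two-sided throughout. Stat2, Stat3, Stat4 and Stat5a were higher in the swimming group at an unadjusted p below 0.05, which makes 4 of the 9 genes. Since the 9 were chosen with earlier results known, this count does not test them as a set. Among all genes tested, 3.11% were higher at that threshold, 2.46% were lower, and 5.56% passed it in either direction. After Benjamini-Hochberg adjustment 0 of the 9 genes and 0% of all genes were called by limma, and the 4 genes each had an adjusted p of 0.889. The smallest adjusted p of any gene was 0.204. A fold change above 2 with an unadjusted p below 0.05 was passed by 0 of the 9 genes and by 0.105% of all genes. The log2 difference, swimming minus control, was positive for 8 of the 9 genes and had a median of 0.18, against 51.7% positive and a median of 0.00 (0.0039) over all genes tested. Groups overlapped in each of the 9 genes, and groups without overlap were found in 0.147% of all genes, and in 0.0789% with the swimming group above. The count of 4 ranged from 1 to 6 when single tumors were left out. It was 1 without control 4 or swimming 6, 2 without control 2, control 5, control 6, swimming 3 or swimming 5, and 6 without swimming 1.

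**Figure D1:**
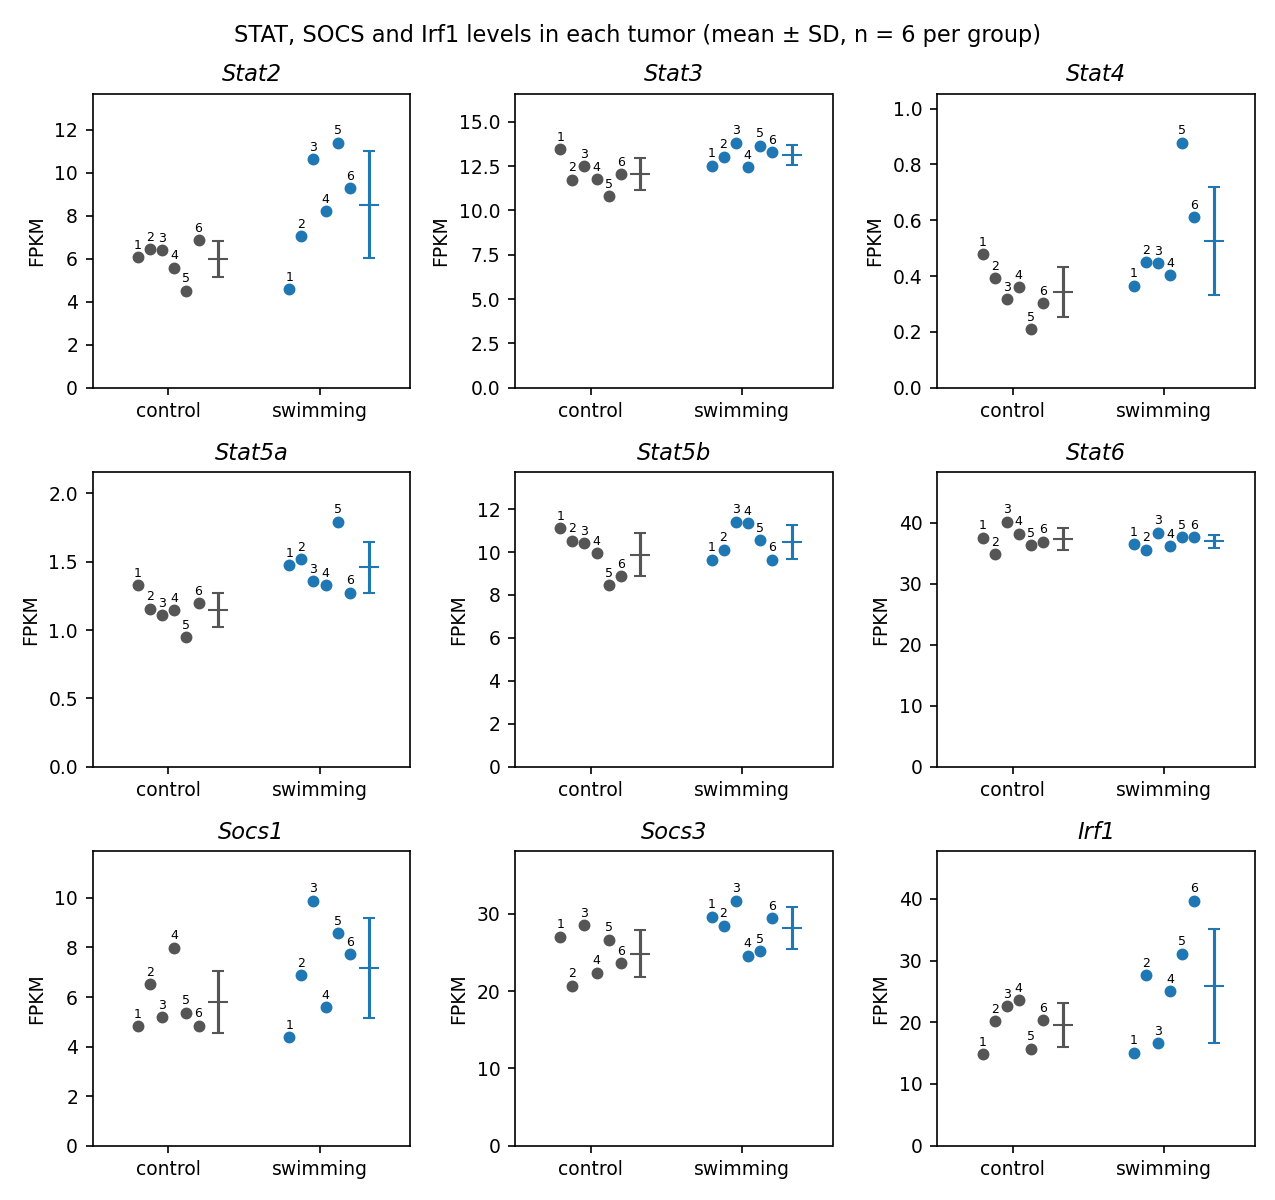
FPKM of the 9 genes in the 12 tumors, 1 panel per gene with its own axis from 0; points are tumors with their replicate numbers, bars are means ± SD (n = 6 per group). Stat2 was above all controls in 5 of 6 swimming tumors, while the groups of Stat6 lie on top of each other.

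Stat2, the STAT of the type I interferon response, had the largest log2 difference of the 9 genes with a pseudocount of 1, while with one of 0.1 or 0.01 that of Stat4 was larger (0.475 against 0.457 for Stat2, and 0.578 against 0.462). Stat2 is on chromosome 10 from 128270559 to 128292849 (GENCODE M21, GRCm38, protein-coding). The lowest, median and highest values were 4.52, 6.23 and 6.86 FPKM in controls and 4.58, 8.74 and 11.4 FPKM in the swimming group. In 5 of 6 swimming tumors Stat2 was above all controls, while swimming 1 was near the lowest control. The means were 5.98 ± 0.835 FPKM (SD, n = 6) and 8.52 ± 2.50 FPKM (SD, n = 6), a ratio of 1.42. The log2 difference was 0.41 (standard error 0.17, 95% interval 0.04 to 0.78, limma unadjusted p = 0.0308, exact permutation p = 0.0584). Without swimming 1, the log2 difference of Stat2 was 0.55 (limma unadjusted p = 0.000648, adjusted 0.199). Over the 12 fits without 1 tumor, it lay between 0.32 (without swimming 5) and 0.55, and the unadjusted p was below 0.05 in 7 of them. With array weights the unadjusted p of Stat2 by limma was 0.0519.

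Irf1 is on chromosome 11 from 53770014 to 53778374 (protein-coding). It ranged from 14.8 to 23.6 FPKM around a median of 20.3 FPKM in the control group, and from 15.1 to 39.7 FPKM around a median of 26.4 FPKM in the swimming group. Swimming 2, 4, 5 and 6 were above all controls, whereas swimming 1 and swimming 3 were among the lowest of all tumors. The means were 19.5 ± 3.57 FPKM (SD, n = 6) and 25.9 ± 9.22 FPKM (SD, n = 6), and the coefficient of variation was 18.3% and 35.6%. The log2 difference of Irf1 was 0.33 (standard error 0.21, 95% interval -0.12 to 0.79, limma unadjusted p = 0.135, adjusted 0.899, exact permutation p = 0.188). It did not exceed the spread between tumors. Without swimming 1 it was 0.47 (limma unadjusted p = 0.0291), and without swimming 6 it was 0.20. A total of 135 exonic bases of Irf1 overlap Gm17334, a gene on the opposite strand, which was at 0.497 FPKM in controls and 0.999 FPKM in swimming mice, and without strand their reads cannot be told apart there.

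Socs1, which binds Janus kinases and limits interferon signaling, is on chromosome 16 from 10782240 to 10785536. Its lowest, median and highest values were 4.83, 5.28 and 7.995 FPKM in controls and 4.37, 7.30 and 9.90 FPKM in the swimming group. Swimming 3 and swimming 5 were above all controls and swimming 1 was below all of them. The log2 difference was 0.25 (standard error 0.17, 95% interval -0.11 to 0.60, limma unadjusted p = 0.158, exact permutation p = 0.203). Without swimming 1, it was 0.36 (limma unadjusted p = 0.0271, adjusted 0.593), and without swimming 3 it was 0.16.

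Socs3, a feedback inhibitor of interleukin-6 signaling that STAT3 induces, is on chromosome 11 from 117966079 to 117970047. It was between 20.7 and 28.5 FPKM in the control group (median 25.1) and between 24.6 and 31.7 FPKM in the swimming group (median 28.95). Swimming 1, 3 and 6 were above all controls, and 3 of 6 controls were below all swimming tumors. The log2 difference was 0.18 (standard error 0.09, 95% interval -0.00 (-0.0049) to 0.36, limma unadjusted p = 0.0555, adjusted 0.889, exact permutation p = 0.0758). Swimming 1, the lowest tumor of its group for Stat2, Stat4, Socs1 and Irf1, was the second highest of its group for Socs3, at 29.6 FPKM. Under the 9 other settings the unadjusted p of Socs3 by limma lay between 0.0298 (array weights) and 0.107 (TMM scaling) and was below 0.05 in 3 of them, and it was below 0.05 in 5 of the 12 fits without 1 tumor.

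Stat3 is on chromosome 11 from 100885098 to 100939540 (protein-coding). The lowest, median and highest values were 10.8, 11.9 and 13.5 FPKM in controls and 12.4, 13.2 and 13.8 FPKM in the swimming group. All 6 swimming tumors were above the control median and 4 of 6 controls were below all swimming tumors, while control 1 was among the highest of the 12. The coefficient of variation was 7.37% in controls and 4.39% in swimming mice. With 95% confidence the log2 difference of 0.12 (limma unadjusted p = 0.0491, exact permutation p = 0.0325) lay between 0.00 (0.0005) and 0.23. Leaving out single tumors moved it between 0.09 (without control 5) and 0.15 (without control 1). In these 12 fits limma's unadjusted p was below 0.05 in 4 and at most 0.114. Under the 9 other settings the unadjusted p of Stat3 by limma lay between 0.0329 (array weights) and 0.096 (replicate block) and was below 0.05 in 5.

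Stat5a and Stat5b encode close relatives, lie beside each other on chromosome 11, and shared much of their sequence. Their coding sequences (2379 and 2358 bases) were identical at 90.7% of 2343 aligned positions, with a longest identical run of 324 bases. Of all windows of 50 bases in the transcripts of Stat5a, 8.21% also occurred in Stat5b, and 11% of those of Stat5b occurred in Stat5a. How the quantification assigned reads from such windows is not known. The ungapped window of 60 coding bases with the most differences within 1 exon of each gene is shown, since reads from it tell the genes apart, with the 19 differing bases in capitals.
Stat5a: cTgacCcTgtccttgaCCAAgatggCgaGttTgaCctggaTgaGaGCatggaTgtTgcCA
Stat5b: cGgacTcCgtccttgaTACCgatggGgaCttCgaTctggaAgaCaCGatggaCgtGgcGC
These are chr11:100883836-100883895 on the plus strand, in exon 20 of Stat5a, and chr11:100783161-100783220 on the minus strand, in exon 19 of Stat5b, near the end of the coding sequence.

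Stat5a (chromosome 11, 100859351 to 100885169) had the smallest unadjusted p of the 9 genes. It ranged from 0.948 to 1.33 FPKM around a median of 1.151 FPKM in controls and from 1.27 to 1.79 FPKM around a median of 1.42 FPKM in the swimming group. All controls other than control 1 were below all swimming tumors, and 4 of 6 swimming tumors were above all controls. The means were 1.148 ± 0.1245 FPKM (SD, n = 6) and 1.46 ± 0.188 FPKM (SD, n = 6). The log2 difference of Stat5a was 0.19 (standard error 0.07, 95% interval 0.05 to 0.34, limma unadjusted p = 0.014, adjusted 0.889, exact permutation p = 0.00649), where 0.00216 is the smallest this test can give. Its unadjusted p by limma stayed below 0.05 in all 12 fits without 1 tumor and under all 9 other settings. With a pseudocount of 0.01 in place of 1 the log2 difference was 0.34, since a pseudocount of 1 is close to the level of the gene. Stat5b (100780731 to 100850724) was 9.89 ± 1.02 FPKM in controls and 10.5 ± 0.795 FPKM in swimming mice (SD, n = 6 each). Its log2 difference was 0.08 (95% interval -0.08 to 0.23, exact permutation p = 0.294), and 3 of 6 swimming tumors were above the control median. Whether the differences of Stat5a and Stat5b differ was not tested. Stat3 and Stat5a end on opposite strands and overlap by 72 exonic bases, where reads could count for either gene without strand.

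Stat4, the STAT of the interleukin-12 response, is on chromosome 1 from 51987148 to 52107189 and had the lowest level of the 9 genes. The lowest, median and highest values were 0.21, 0.338 and 0.479 FPKM in controls and 0.365, 0.448 and 0.878 FPKM in the swimming group. All 6 swimming tumors were above the control median, and swimming 5 and swimming 6 were above all controls. The ratio of the means was 1.53, while the log2 difference was 0.18 (standard error 0.08, 95% interval 0.00 (0.0043) to 0.35) because the pseudocount exceeds the level of this gene. It was 0.58 with a pseudocount of 0.01. The unadjusted p was 0.0453 by limma, while exact permutation gave p = 0.039. Without swimming 5 the log2 difference of Stat4 was 0.12 (limma unadjusted p = 0.0949), above the threshold, and limma's unadjusted p was below 0.05 in 5 of the 12 fits without 1 tumor. Of the exonic bases of Stat4, 1033 are shared with Gm28177 on the same strand, at 0.145 FPKM in controls and 0.255 FPKM in swimming mice, so the division of reads between them is uncertain.

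Beside Stat4, 5 of 14 markers of T cells and natural killer cells were higher in the swimming group below an unadjusted limma p of 0.05, against 3.11% of all genes, and 0 were lower. They were Cd3d, Cd3g, Cd2, Cd8a and Cd8b1, with log2 differences from 0.43 to 0.61 and adjusted p of 0.889. Without swimming 1 the count was 8. Natural killer marker Ncr1 had a log2 difference of 0.23 (limma unadjusted p = 0.202) and perforin, Prf1, one of -0.22 (limma unadjusted p = 0.519). Cd3e and Cd4 had log2 differences of 0.27 and 0.14 (limma unadjusted p = 0.0967 and 0.243). The sum of the 14 markers was between 33.9 and 69.3 FPKM (median 58.6) in controls and between 28.3 and 90.5 FPKM (median 66.6) in swimming mice. Its log2 values did not differ between groups beyond their spread (exact permutation p = 0.552). Prf1, Gzma, Gzmb and Thy1, at the highest levels of the 14, weigh most in the sum, with log2 differences from -0.22 to 0.11. The part of the sum in the values of Stat4 was not tested. None of the 14 markers was at 0 in all tumors. Of 10 macrophage markers, 1 (Aif1) was higher, and of the markers of neutrophils, B cells, endothelium, fibroblasts, skeletal muscle and epithelium 0 were higher or lower at that threshold by limma. Skeletal muscle markers had a median log2 difference of 0.43, with 7 of 8 positive, against 51.7% of all genes. Their unadjusted p by limma lay between 0.385 and 0.927. They summed to between 3.04 and 191.2 FPKM in controls and between 2.47 and 267 FPKM in swimming mice. The log2 values of this sum did not differ between groups beyond their spread (exact permutation p = 0.719).

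Stat6, the STAT of the interleukin-4 response, is on chromosome 10 from 127642986 to 127660957 and varied least. It ranged from 34.8 to 40.2 FPKM around a median of 37.2 FPKM in controls and from 35.6 to 38.4 FPKM around a median of 37.0 FPKM in the swimming group. The coefficient of variation was 4.91% and 2.88%. The log2 difference was -0.01 (95% interval -0.10 to 0.08, exact permutation p = 0.721), so differences of more than 0.10 lower or 0.08 higher on the log2 scale lie outside the interval. Stat6 and Nab2 overlap by 40 exonic bases on opposite strands, and Nab2 was at 51.6 FPKM in controls and 58.6 FPKM in swimming mice.

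**Figure D2:**
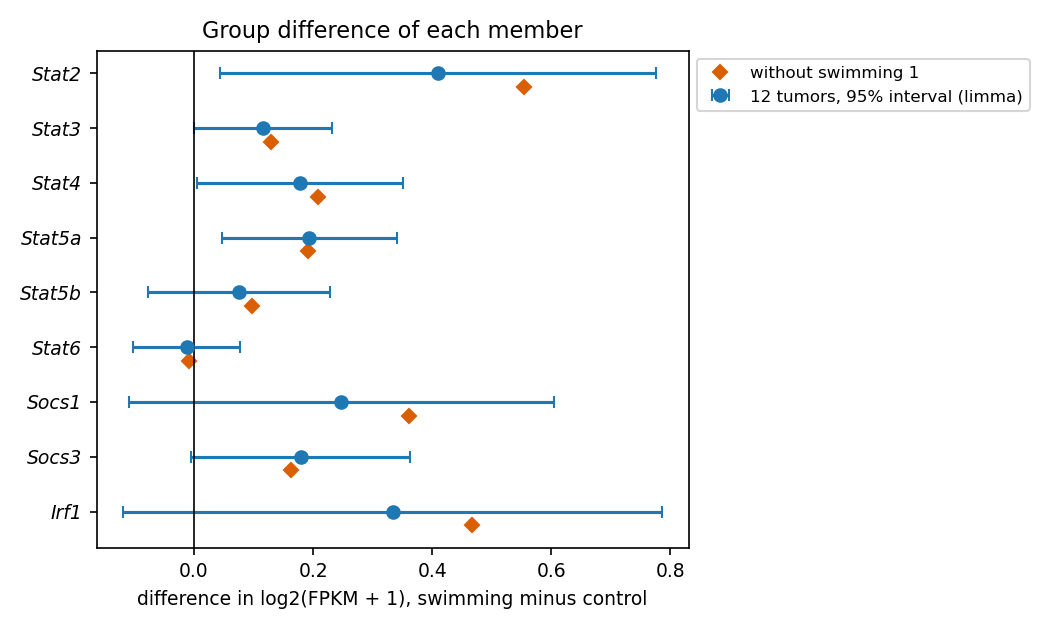
Difference in mean log2(FPKM + 1), swimming minus control, for the 9 genes; circles and bars are the estimate and 95% interval of limma with 12 tumors, diamonds the estimate without swimming 1. The intervals of Stat2, Stat3, Stat4 and Stat5a lie above 0, and the diamonds of Stat2, Socs1 and Irf1 lie to the right of their circles.

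Other genes of the pathway were counted by lists, which were also chosen with earlier results of these data known. Of the 4 Janus kinases, 0 were higher or lower below an unadjusted limma p of 0.05. Jak1 was 18.3 ± 1.38 and 19.5 ± 1.03 FPKM in the control and swimming groups (SD, n = 6 each), Jak2 14.96 ± 1.41 and 14.8 ± 1.10, Jak3 15.4 ± 3.49 and 17.2 ± 1.36, and Tyk2 7.28 ± 0.473 and 7.68 ± 0.551. Their log2 differences were 0.09, -0.01, 0.18 and 0.07.

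Of 22 cytokine genes, 19 were found by name among the genes measured, while Il2, Il13 and Il21 were not. Il12a and Csf3 did not pass the filter on low values. Of the 17 that passed, 3 were higher and 0 were lower below an unadjusted limma p of 0.05. Ifng, which encodes interferon gamma, was between 0.125 and 0.584 FPKM in controls and between 0.334 and 1.83 FPKM in the swimming group. In all swimming tumors other than swimming 1 it was above all controls. Its log2 difference was 0.55 (standard error 0.17, limma unadjusted p = 0.00629, adjusted 0.889, exact permutation p = 0.0173). Il15, whose product sustains natural killer cells and memory T cells, and Il27, whose product acts through several STATs in T cells, had log2 differences of 0.32 (exact permutation p = 0.0108) and 0.40 (exact permutation p = 0.00649). Il6, which encodes a cytokine upstream of STAT3, was 0.347 ± 0.137 FPKM in controls and 0.247 ± 0.148 FPKM in swimming mice (SD, n = 6 each). Its log2 difference was -0.11 (exact permutation p = 0.24). Il11, Clcf1, Lif and Osm of the same list were at higher levels than Il6, with 14.3, 5.96, 4.94 and 1.485 FPKM in controls. With only genes of at least 1 FPKM in 6 tumors kept, the count of higher cytokines was 1.

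Of 30 receptor genes 28 passed the filter, and of these 2 were higher and 0 were lower at that threshold by limma. They were Il13ra1 (log2 difference 0.21, exact permutation p = 0.022) and Il21r (0.35, exact permutation p = 0.0541). The largest difference was that of Il2rb (0.41, exact permutation p = 0.0779). The count was 5 without control 4 or swimming 1 and 1 without control 5, control 6, swimming 3, swimming 5 or swimming 6. Among 18 other SOCS genes and negative regulators, 0 were higher or lower by limma, with a median log2 difference of 0.01 (0.0074), and Usp18, an inhibitor of type I interferon signaling, had the largest (0.32, exact permutation p = 0.154). Without swimming 1, 2 of these 18 were higher by limma. Of 10 other interferon regulatory factors 9 passed the filter, and of these 0 were higher or lower by limma with all tumors, and 4 were higher without swimming 1. Irf7 had the largest log2 difference of them (0.28, exact permutation p = 0.281).

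Target genes were counted in the same way. Of 22 genes known to respond to interferon gamma and IRF1, 16 were higher and 0 were lower below an unadjusted limma p of 0.05, where 3.11% of all genes were higher. Their median log2 difference was 0.55, and 0 passed 0.05 after adjustment in limma. They include the guanylate-binding proteins Gbp2, Gbp3 and Gbp5 (0.99, 0.93 and 0.73), the immunity-related GTPases Igtp, Irgm1 and Iigp1 (0.80, 0.58 (0.585) and 0.78), the immunoproteasome subunits Psmb8, Psmb9 and Psmb10 (0.62, 0.48 and 0.41), the peptide loading genes Tap2 and Tapbp (0.34 and 0.35), the chemokines Cxcl9 and Cxcl10 (1.04 and 0.79), the MHC class II regulator Ciita (0.60), the checkpoint ligand Cd274 (0.50) and the tryptophan-degrading enzyme Ido1 (0.85). By exact permutation, Irgm1, Iigp1, Cxcl9, Cxcl10, Tapbp, Psmb9 and Cd274 of these 16 did not pass 0.05, with p between 0.0541 and 0.0866. The rest of the 16 had an exact permutation p of at most 0.0498. Tap1, Nlrc5, B2m, Casp1, Il18bp and Wars did not pass by limma, with log2 differences from 0.09 to 0.51. The count was 21 without swimming 1, 7 without swimming 5, 8 without control 5, 8 without swimming 6 and 9 without swimming 3. Beside these genes the T cell markers named above were higher too, and their part in the count was not tested.

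Of 18 STAT3 target genes, 3 were higher and 1 was lower by the same threshold, and the median log2 difference was 0.01 (0.0075). Higher were Bcl3, a nuclear partner of NF-kB (0.27, exact permutation p = 0.00649), and Saa3, an acute phase protein (0.73, exact permutation p = 0.0584). The third was Fgl2, a secreted fibrinogen-like protein of immune cells (0.70, exact permutation p = 0.0649). Lower was Myc, a transcription factor of growth (-0.35), which was 33.7 ± 5.82 FPKM in controls and 26.1 ± 3.82 FPKM in swimming mice (SD, n = 6 each, exact permutation p = 0.0238). The count of higher genes was 5 without swimming 1 and 1 without control 3, swimming 3, swimming 5 or swimming 6. Of 10 STAT5 and 12 STAT6 target genes, 0 were higher or lower by limma, with median log2 differences of 0.03 and -0.01. The largest differences were those of Bcl2l1 (-0.32, exact permutation p = 0.299) and Pdcd1lg2 (0.54, exact permutation p = 0.108). Of 8 STAT4 target genes, 2 were higher by that threshold, against 3.11% of all genes. They were Ifng (0.55), also counted among the cytokines, and Icos (0.25), a costimulatory receptor of T cells. Both were low, with means in the control and swimming groups of 0.367 and 1.055 FPKM for Ifng and 0.361 and 0.63 FPKM for Icos. With only genes of at least 1 FPKM in 6 tumors kept, the count was 0.

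**Figure D3:**
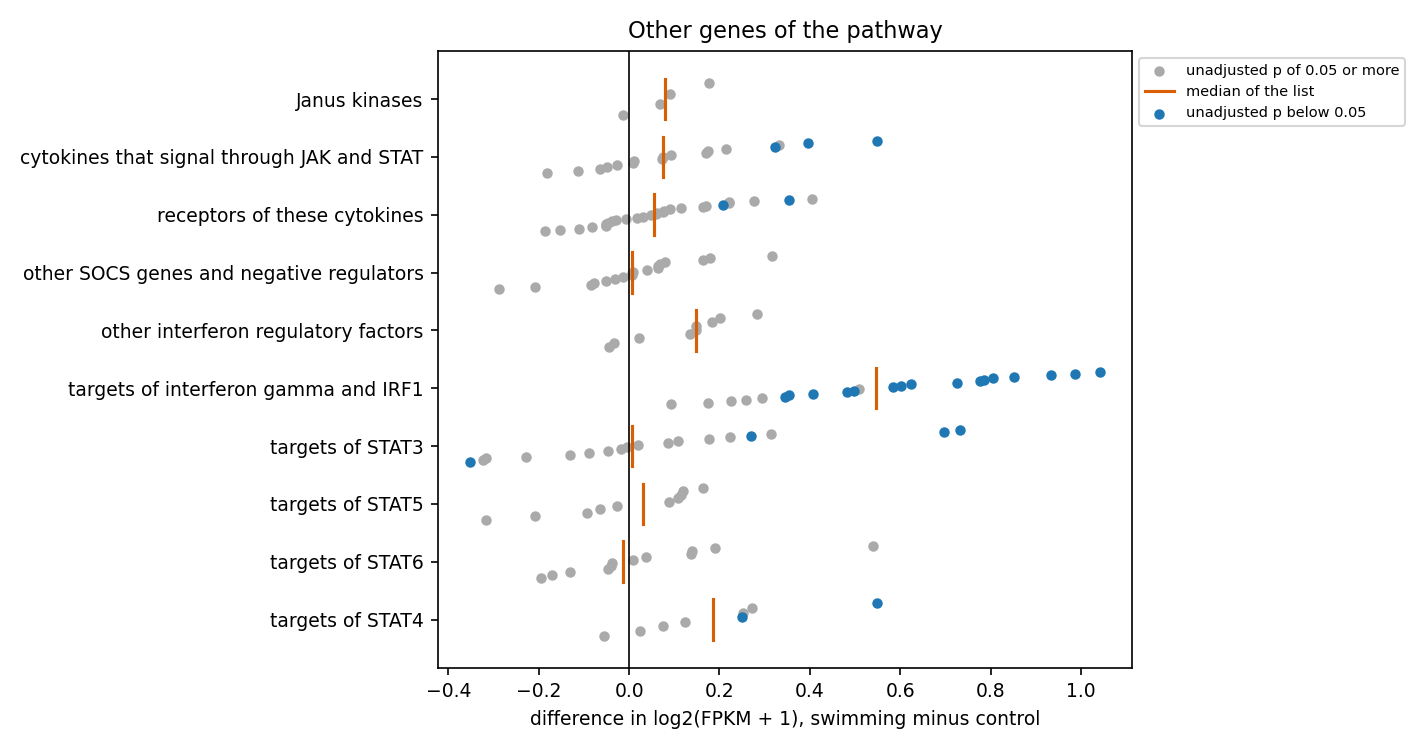
Differences in mean log2(FPKM + 1), swimming minus control, for genes of the pathway and for target genes, 1 line per list; blue points have an unadjusted p below 0.05 by limma and orange bars are medians. The 22 interferon gamma and IRF1 targets all lie to the right of 0, with 16 of them in blue, while medians of the STAT3, STAT5 and STAT6 targets lie near 0.

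A total of 6 relations across the 12 tumors were tested with 100000 permutations on each of Pearson's r and Spearman's rho. For Ifng and Irf1 r was 0.646 (permutation p = 0.023, Benjamini-Hochberg adjusted 0.111) and rho 0.636 (permutation p = 0.0297, adjusted 0.0594). Within the control group r was -0.11 and within the swimming group 0.703, and without swimming 5 and swimming 6 it was 0.151 (permutation p = 0.678). In each relation, the 2 tumors left out together lie farthest from the median on the x axis, so their omission narrows its range. Leaving out single tumors moved r of Ifng and Irf1 between 0.487 and 0.774. Its unadjusted permutation p was below 0.05 in 10 of these 12 omissions. For Irf1 and Stat2 r was 0.586 (permutation p = 0.0455, adjusted 0.111) and rho 0.643 (permutation p = 0.0271, adjusted 0.0594). Within the groups r was 0.431 and 0.481, and without swimming 5 and swimming 6 it was 0.315 (permutation p = 0.379). For Irf1 and Socs1 r was 0.479 (permutation p = 0.117, adjusted 0.14) and rho 0.587 (permutation p = 0.0485, adjusted 0.0727). Within the groups r was 0.565 and 0.319, and without swimming 5 and swimming 6 it was 0.267 (permutation p = 0.455). In swimming 3 Irf1 was low, at 16.7 FPKM, while Socs1 and Stat2 were high, at 9.90 and 10.6 FPKM. Leaving out single tumors moved r between 0.382 and 0.785 for Socs1 and between 0.496 and 0.825 for Stat2. Both highest values were without swimming 3, and a rise is what leaving out a tumor that lies apart gives. The unadjusted permutation p was below 0.05 in 1 of the 12 omissions for Socs1 and in 2 of the 12 for Stat2.

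Stat4 and the summed T cell and natural killer cell markers had an r of 0.555 (permutation p = 0.0643, adjusted 0.111) and a rho of 0.399 (permutation p = 0.2, adjusted 0.2). Within the groups r was 0.513 and 0.572, and without control 5 and swimming 1 it was 0.478 (permutation p = 0.163). For Stat3 and Socs3 r was 0.536 (permutation p = 0.0738, adjusted 0.111) and rho 0.65 (permutation p = 0.0262, adjusted 0.0594). Within the groups r was 0.31 and 0.325, and without control 5 and swimming 3 it was 0.653 (permutation p = 0.0437). For Stat5a and Stat5b r was 0.442 (permutation p = 0.148, adjusted 0.148) and rho 0.434 (permutation p = 0.161, adjusted 0.193). Within the groups r was 0.696 and -0.074, and without control 5 and swimming 5 it was 0.137 (permutation p = 0.702). After adjustment over the 6 relations, 0 passed 0.05 by either measure in these permutation tests, and an unadjusted p below 0.05 was reached by 2 of them with r and by 4 with rho.

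**Figure D4:**
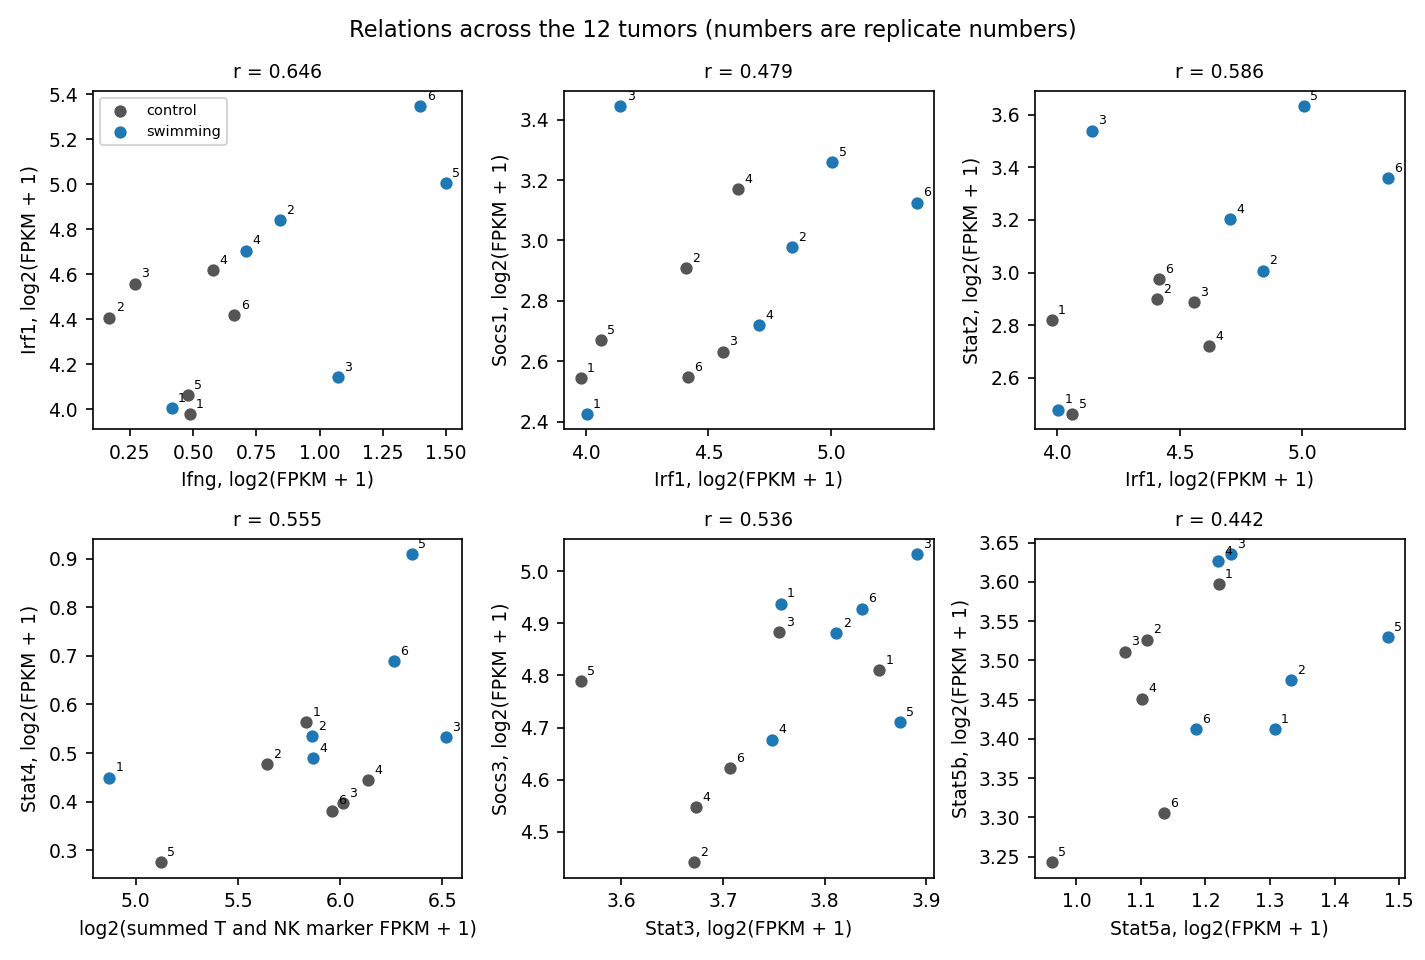
The 6 relations across the 12 tumors on log2(FPKM + 1), with replicate numbers beside the points; r above each panel is Pearson's r over all tumors. In the panels of Irf1 against Socs1 and Stat2, swimming 3 lies at the upper left, apart from the other tumors.

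Genes with the most similar pattern were found by Pearson's r of log2(FPKM + 1) over the 12 tumors, among the 12788 other genes with a mean of at least 1 FPKM (12789 for Stat4, which is itself below that level). Composition and depth differ between the tumors and were not accounted for, so these are descriptions. Stat2 was most like Samhd1, a nucleotide-degrading restriction factor, Dtx3l, an E3 ubiquitin ligase, and Apol9a (r = 0.987, 0.987 and 0.978), at 0.997, 0.996 and 0.996 within the swimming group and 0.944, 0.909 and 0.839 within the control group. Socs1 was most like Fcgr1, an Fc receptor of macrophages, and the chemokine genes Cxcl10 and Cxcl11 (r = 0.914, 0.901 and 0.884). Irf1 was most like Pdik1l, Ido1 and the inhibitory receptor gene Lair1 (r = 0.898, 0.89 and 0.888). Stat4 was most like Igkv1-117, an immunoglobulin variable gene, Aif1, a macrophage gene, and Ptprc, which encodes the leukocyte antigen CD45 (r = 0.962, 0.939 and 0.939).

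Stat3 was most like Hpcal1, H2-Ea-ps and Gimap8 (r = 0.912, 0.904 and 0.904). Socs3 was most like Kdm4b, a histone demethylase, Gpr108 and Higd1a (r = 0.914, 0.883 and 0.877). Stat5a was most like the regulators of G protein signaling Rgs2 and Rgs14, and Sart3 (r = 0.896, 0.865 and 0.86), and Stat5b was most like Rbms2, Atxn7l1 and Cenph (r = 0.9, 0.896 and 0.883). Stat6, with the narrowest range, had the lowest values, with Abi1, Gm44075 and Prr14 (r = 0.836, 0.789 and 0.785). No gene was named for more than 1 of the 9.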

How the data were processed

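RNA of 12 CT-26 tumors (6 control, 6 swimming) was sequenced after removal of ribosomal RNA. According to the submitters' processing notes, reads were mapped with HISAT2 2.0.5 and quantified with StringTie 1.3.3. The methods name hg38, the notes also GRCm38, and rows are mouse Ensembl identifiers. The authors deposited FPKM per gene and tumor, so the depth is unknown and no counting error can be given. Coordinates are from GENCODE M21 (GRCm38), matched by identifier.

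Values were transformed as log2(FPKM + 1). Genes with at least 0.1 FPKM in 6 tumors were compared with limma 3.58.1 (R 4.3.3; lmFit, eBayes with trend, group only) with Benjamini-Hochberg adjustment, and single genes by two-sided exact permutation over the 924 divisions of the tumors. The comparison was tested on simulated data. Each tumor is from a different mouse, and groups and numbers are from the labels. Same-numbered tumors had correlations of deviations between -0.32 and 0.006, so numbers were not taken as pairs. The members and gene lists were chosen with earlier results of these data known.

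Named are the 9 genes, the 4 Janus kinases, Ifng, Il6, list genes at an unadjusted p below 0.05 or with the largest difference in their list, and 3 similar genes per member. Marker genes and genes that missed the threshold were also named after their values were seen. The promoter of Stat2 was added to those printed after the motif search. Identity between proteins had been planned; only Stat5a and Stat5b were compared, by coding sequence (GENCODE transcripts). Libraries were not stated to keep strand. Python 3.11.15, pandas 2.3.3, scipy 1.17.1 and matplotlib 3.10.9 were used.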

Additional observations from a re-analysis of the deposited data

Results flagged for a closer look

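Dixon's ratio was used to seek single tumors that stand apart, in 34 groups of 6 values made up of the 9 genes and the summed FPKM of 8 marker lists in both groups. Such a tumor was present in 5 groups, and in 0 of the 18 groups of STAT, SOCS and Irf1 values. Chance would give about 1.7 if all values were normally distributed. The 5 groups are all marker sums in FPKM without logarithm, so whether 5 is more than chance gives was not tested. Neutrophil markers summed to 40.6 FPKM in swimming 6, against at most 19.98 FPKM in the others of its group. In the control group, however, they reached 38.2 FPKM in control 1 and 43.1 FPKM in control 5. Skeletal muscle markers were at 191.2 FPKM in control 6, with the next control at 60.8 FPKM, but swimming 3 and swimming 5 had 179.3 and 267 FPKM. Epithelial markers were at 144.7 FPKM in control 4, with the next control at 30.5 FPKM. B cell markers, of which only Cd79b passed the filter, were at 4.38 FPKM in control 1 and 1.25 FPKM in swimming 5, with the next tumors of their groups at 0.501 and 0.712 FPKM.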

How the results depend on the processing

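Settings were a pseudocount of 0.1 or 0.01, no filter or one of 1 FPKM, quantile normalization, TMM scaling, no trend, array weights, a replicate block, and omission of single tumors. The cutoff on fold change and unadjusted p was passed by 20 genes, 138 with a pseudocount of 0.1, 229 with one of 0.01, and 10 (without swimming 5) to 41 (without swimming 1) when a tumor was left out. After adjustment in limma 0 genes passed, 1 with array weights, and 0 to 3 without 1 tumor (3 without control 4, 2 without swimming 1), none of them among the 9 genes. At an unadjusted p below 0.05 were 1058 genes, and 4 of the 9 genes, a count of 1 to 6 without 1 tumor. The 9 genes kept their direction in every fit except Stat6, whose log2 difference was 0.0086 without control 3 and otherwise down to -0.032 without 1 tumor. With the replicate number as a block, 3 of the 9 genes were at an unadjusted p below 0.05 (Stat2, Stat5a and Socs3, at 0.0464, 0.0493 and 0.0335), in place of 4, and 15 genes passed the cutoff on fold change. Higher genes then numbered 13 in place of 16 among the interferon gamma and IRF1 targets and 1 in place of 3 among the STAT3 targets, and Stat4 was at 0.11. Same-numbered tumors come from different mice and did not deviate together. Left-out and block counts of the gene lists were added after seeing the data. Of the 4 genes, Stat4 has no value with the filter of 1 FPKM.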
